A study of Arabidopsis thaliana with 2 samples.

Results

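In the table of genes deposited as down-regulated in *cep1* stems, 75 of the 733 genes carried a molecular function text with the words transporter activity. Leaving out the sugar transporter gene *SWEET15*, which is also a senescence-associated gene, 74 genes were examined. They were chosen by this annotation and not by their values, but every gene of the table had been listed for being lower in *cep1*, so a lower value in *cep1* is given by the table and is no finding about transporters. The *cep1* line carries a T-DNA insertion in the third exon of *CEP1*, which encodes a papain-like cysteine protease, and the WT was Columbia-0. RNA of 1 mature stem sample of each genotype was sequenced, both untreated and labelled as 25 d after flowering, whereas the methods place both at the stage when flowering had stopped, which *cep1* reached later. With 1 library a genotype, variation among plants of a genotype was not measured and no test was made, so the values compare 2 libraries. Intervals cover counting error only.

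Membrane transporters move sugars, amino acids, ions, metals, water and signalling compounds across the plasma membrane, the tonoplast and the envelopes of plastids and mitochondria. Carriers change shape to move a solute, often driven by a proton gradient, channels open a pore, and pumps such as ABC proteins and P-type ATPases use ATP. In stems they load and unload the phloem and the xylem, retrieve solutes from the xylem sap and export nutrients from ageing tissue.

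The library totals, recovered from the counts, lengths and FPKM values (reads scaled to gene length and library size), came to 22077141 in *cep1* and 20962056 in the WT. They were taken to be the reads on genes, which was not checked. A count of 0 allows up to 3 reads. For the mutated gene itself, *CEP1*, the *cep1* library held 15 reads and the WT library 1269. Genes that mark stem tissue were not analysed here, because the table holds down-regulated genes. Seed genes differed between the libraries. Of 14 seed storage protein and oleosin genes in a list of markers, 12 were in the table, with 137 reads in all in *cep1*, from 1 gene, and 88279 in the WT. The 4 cruciferin genes and 5 genes of the 2S albumins were all at 0 reads in *cep1*.

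The 74 genes took 63554 reads in *cep1*, or 0.288% of the library (0.286 to 0.290%), whereas in the WT they took 220514 reads, or 1.05% (1.048 to 1.056%, both Wilson 95% intervals). All genes of the table together took 2.12% in *cep1* and 8.79% in the WT, so a lower share in *cep1* is given by the table. In a bulk stem sample, fewer cells of a type and less RNA per cell cannot be told apart. All 74 had a log2 ratio of *cep1* to WT of -1 or below, as did 100% of the table, and nothing is read from that count. The log2 ratio is that of the read counts divided by the authors' scaling constants. The upper limit of the exact 95% counting interval lay at -1 or below for 64 genes (86.5%), against 90.2% of the table. A log2 ratio of -2 or below, which is a 4-fold lower value, was found for 28 genes (37.8%), against 46.8% of the table and 47.8% of its other 659 genes. The median log2 ratio was -1.57, whereas the other genes had a median of -1.91 when genes without a read in *cep1* were set to 3 reads. The quartiles of the 74 genes were -2.65 and -1.34. The plot of cumulative shares sets the 74 genes beside the rest of the table.

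**Figure D1:**
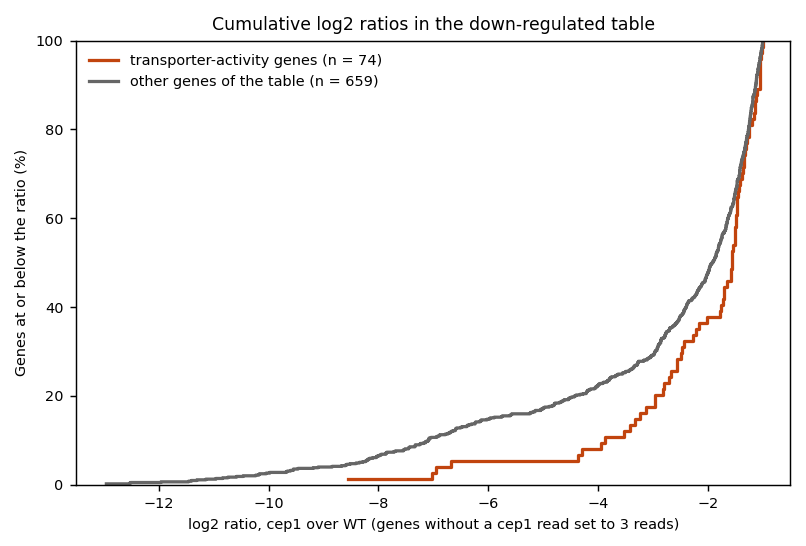
Cumulative share of genes (vertical axis, %) at or below each log2 ratio of *cep1* to WT (horizontal axis), for the 74 transporter genes and the 659 other genes of the table. Genes without a read in *cep1* were set to 3 reads, and the curve of the transporter genes starts at -8.55 and lies below that of the other genes over the lower ratios, with a median of -1.57 for the transporter genes and -1.91 for the other genes.

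Genes that were close to absent in *cep1* were few among the transporter genes. At most 3 reads in *cep1* were found for 4 of the 74 genes (5.41%), against 12.1% of the table and 85 of its other 659 genes (12.9%). None of the 74 genes lacked reads in *cep1*, whereas 61 of the other 659 genes did. Since a count of 0 allows up to 3 reads, those 61 cannot be told from genes at 3 reads or fewer. The 4 genes were *UMAMIT25*, *TIP3-1*, *NPF4.1* and *SUC5*. In the WT, *NPF4.1* (FPKM 6.79), *SUC5* (9.12) and *TIP3-1* (11.8) were among the less abundant of the 74 genes, whose median was 37.5, whereas *UMAMIT25* (38.2) lay near that median. *UMAMIT25*, *SUC5* and *TIP3-1* are known from seeds, and the part of seed tissue in these values, given the 137 reads of the seed marker genes in *cep1* and 88279 in the WT, was not tested. Computed on FPKM values with 1 added, a scale that understates the change of genes at low levels, the log2 ratios of the 4 genes lay nearer 0, at -5.17 for *UMAMIT25*, -3.57 for *TIP3-1*, -3.23 for *SUC5* and -2.90 for *NPF4.1*. *SWEET15*, which was set aside, had 1 read in *cep1* and 905 in the WT.

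**Figure D2:**
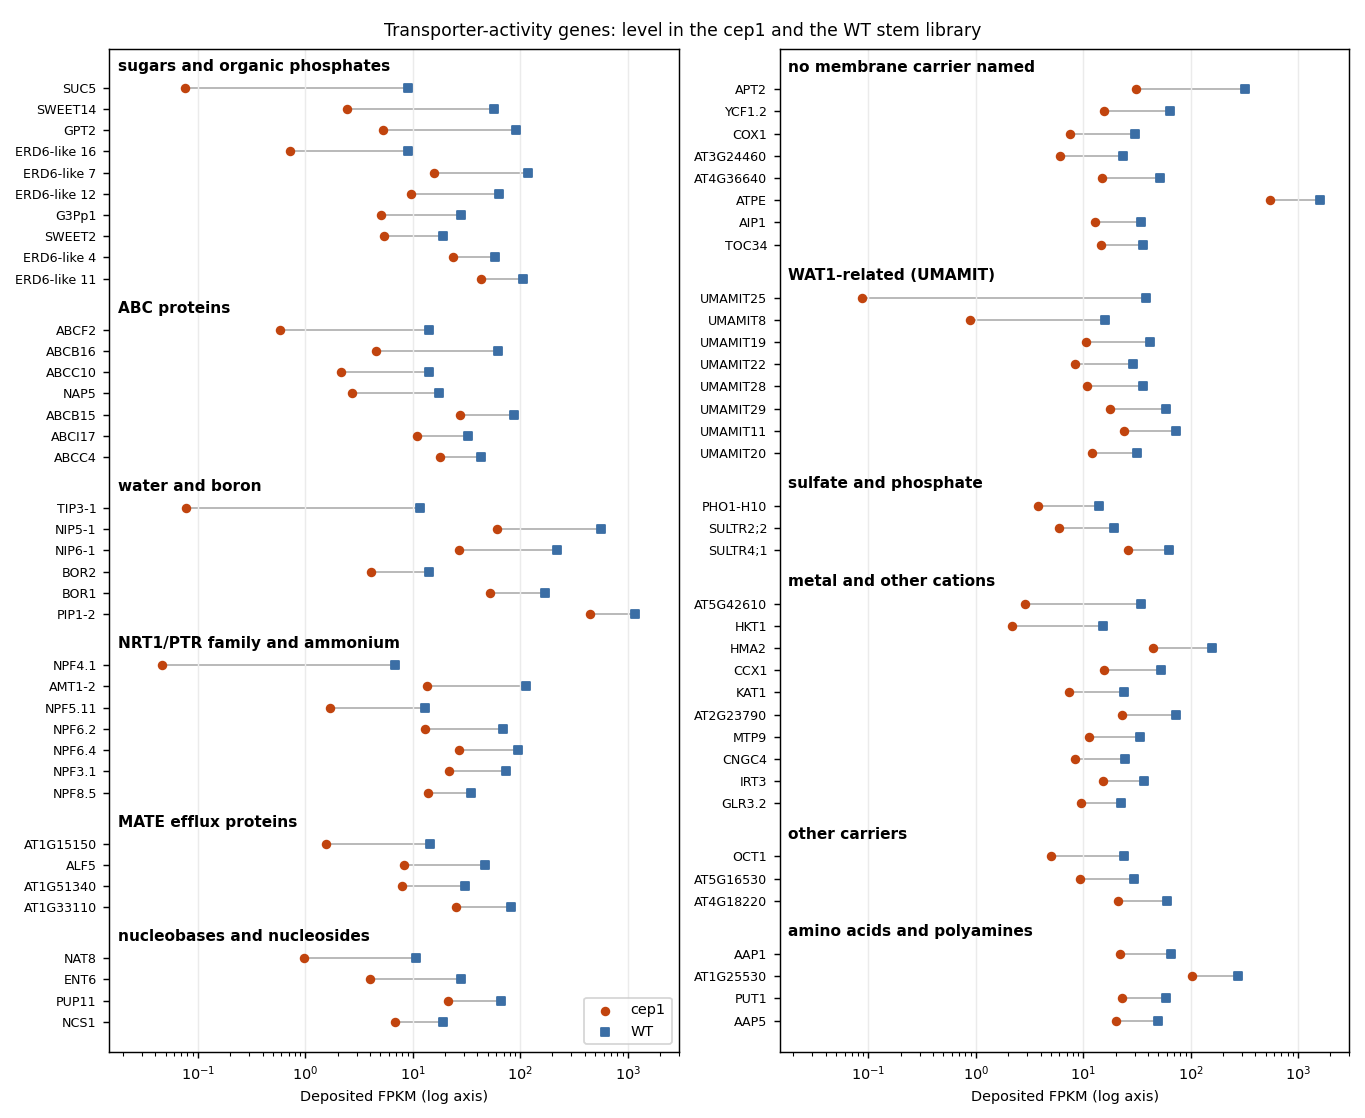
Deposited FPKM (log axis) of each of the 74 genes in the *cep1* library (circles) and the WT library (squares), grouped by substrate or family, with groups ordered by median log2 ratio from the lowest and genes within a group likewise. All circles lie left of their squares, and the 4 longest lines belong to *SUC5*, *TIP3-1*, *NPF4.1* and *UMAMIT25*.

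By the substrate or family in the deposited descriptions, the 74 genes fell into 12 groups of 3 to 10 genes. The lowest group median, -2.58, was that of the 10 genes for sugars and organic phosphates, and the one nearest 0, -1.14, that of the 4 genes for amino acids and polyamines. Most groups overlapped in the ratios of their genes, and with so few genes in each the order of the medians is a description. Summed over a group, the reads were highest for the 6 genes of water and boron transport, with 875 RPM (reads per 1000000 reads on genes) in *cep1* and 3197 RPM in the WT, as the bars of reads by group show.

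**Figure D3:**
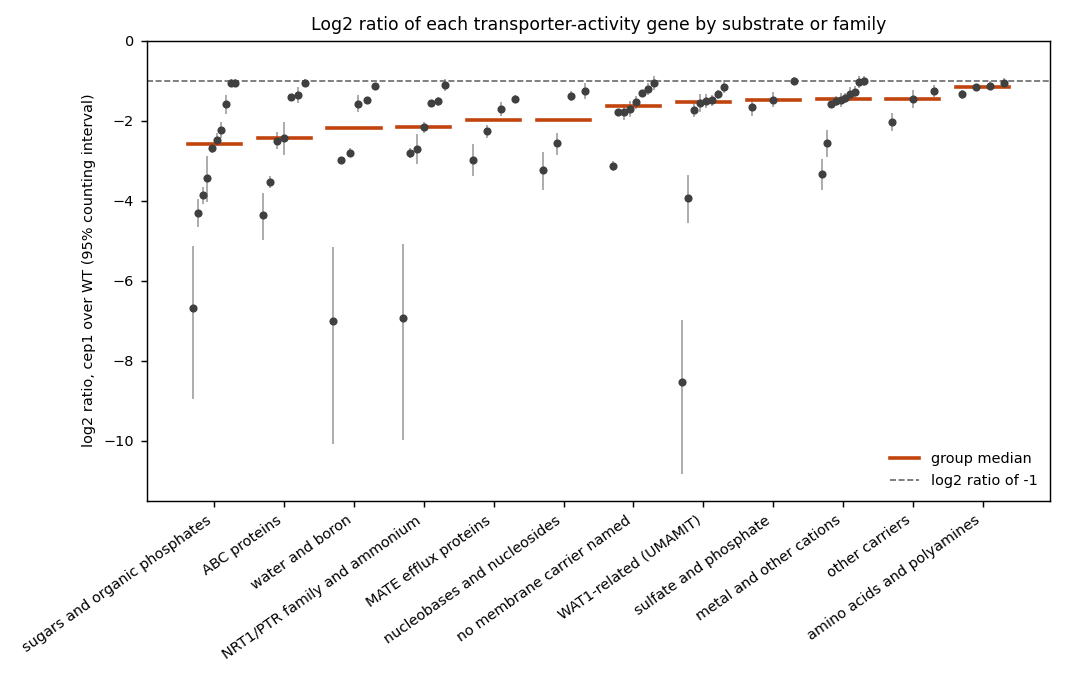
Log2 ratio of *cep1* to WT (vertical axis) of each of the 74 genes, as points with exact 95% counting intervals, by substrate or family. Bars mark the group medians, from -2.58 for sugars and organic phosphates to -1.14 for amino acids and polyamines, the dashed line marks -1, and the widest intervals belong to the 4 genes with 2 or 3 reads in *cep1*.

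Water and boron transport held 4 of the 10 genes with the highest WT levels. *PIP1-2*, a plasma membrane aquaporin, had 13126 reads and an FPKM of 448 in *cep1*, against 32424 reads and an FPKM of 1167 in the WT, a log2 ratio of -1.14 (-1.17 to -1.11). It alone took 20.7% of the reads of the 74 genes in *cep1* and 14.7% in the WT. The boric acid channel genes were further apart between the libraries. *NIP5-1*, which takes up boric acid in roots, had 2034 reads and an FPKM of 60.6 in *cep1*, against 17886 reads and an FPKM of 561 in the WT (log2 ratio -2.97, interval -3.04 to -2.91). *NIP6-1*, which serves boron distribution to young shoot tissue, had 719 reads and an FPKM of 26.9 in *cep1*, against 5598 reads and an FPKM of 220 in the WT (-2.80, -2.91 to -2.68). These genes were thus 7.85-fold and 6.95-fold lower, and their counting intervals overlapped. The borate exporter genes lay closer to -1. *BOR1*, which loads boron into the xylem, had FPKM values of 52.0 in *cep1* and 172 in the WT (-1.49, -1.54 to -1.43), and *BOR2* had 4.05 in *cep1* and 14.2 in the WT (-1.57, -1.78 to -1.37). The intervals of both exporters lay apart from those of both channels. The borate transport term was carried by these 4 genes alone among the 74. *TIP3-1*, an aquaporin known from the storage vacuoles of seeds, had 2 reads in *cep1* stems but 291 in WT stems, and the interval of its log2 ratio, -10.07 to -5.16, was wide.

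Aquaporins share a pore lined by a pair of Asn-Pro boxes. They are shown because box 2 differs between the boric acid channels and the other aquaporins among these 4 genes. The coding bases of each box (in capitals, with 12 bases on each side) were read from the RefSeq coding sequences of TAIR10.1, 5′ to 3′ on the coding strand.
NIP5-1 box 1, chr4:6432357-6432389, reverse strand: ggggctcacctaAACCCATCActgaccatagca
NIP5-1 box 2, chr4:6431683-6431715, reverse strand: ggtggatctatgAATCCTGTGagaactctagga
NIP6-1 box 1, chr1:30351485-30351517, reverse strand: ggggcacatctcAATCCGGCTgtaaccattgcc
NIP6-1 box 2, chr1:30350790-30350822, reverse strand: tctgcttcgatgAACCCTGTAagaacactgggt
TIP3-1 box 1, chr1:27522510-27522542, forward strand: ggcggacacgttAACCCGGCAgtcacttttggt
TIP3-1 box 2, chr1:27522971-27523003, forward strand: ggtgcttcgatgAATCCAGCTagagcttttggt
PIP1-2 box 2, chr2:18911445-18911477, forward strand: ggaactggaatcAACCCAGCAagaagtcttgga
Each stretch lies within 1 coding exon, and the capitals encode NPS and NPV in *NIP5-1*, NPA and NPV in *NIP6-1* and NPA in both boxes of *TIP3-1* and in box 2 of *PIP1-2*. Box 1 of *PIP1-2*, also NPA, spans an intron and is not printed.

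Sugar transporter genes were among those furthest apart. *SUC5*, a sucrose and proton symporter known from the endosperm, had 3 reads in *cep1*, against 345 in the WT (log2 ratio -6.68, interval -8.97 to -5.12). *SWEET14*, a bidirectional sugar transporter gene, had 69 reads and an FPKM of 2.44 in *cep1*, against 1521 reads and an FPKM of 56.6 in the WT (-4.30, -4.67 to -3.95). *GPT2*, which exchanges glucose 6-phosphate for phosphate across the plastid envelope, had 185 reads in *cep1* stems but 3031 in WT stems, and was 14.6-fold lower (-3.87, -4.09 to -3.66). *SWEET2*, a sugar transporter gene of the tonoplast, lay at -1.59, with 200 reads in *cep1*, against 674 in the WT, so the *SWEET* genes of the table differed from each other by more than their counting intervals. The 5 *ERD6-like* genes, of a family of monosaccharide carriers, spread from -3.43 to -1.05. *ERD6-like 7*, which RefSeq also lists as zinc-induced facilitator *ZIF2*, had the highest WT level of the sugar group, with FPKM values of 15.8 in *cep1* and 120 in the WT (-2.68, -2.80 to -2.55). *ERD6-like 16* lay at -3.43 and *ERD6-like 12* at -2.48. *ERD6-like 4* (-1.06) and *ERD6-like 11* (-1.05) were nearest the threshold, and their intervals reached across -1. The glycerol 3-phosphate transporter gene *G3Pp1*, known from phosphate starvation, lay at -2.23.

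Of the genes for nitrogen compounds, those of the NRT1/PTR family, whose proteins carry nitrate, peptides or hormones, spread widely. *NPF4.1*, a carrier of abscisic acid and gibberellin, had 2 reads in *cep1* stems but 276 in WT stems (-6.94, -10.00 to -5.08). *NPF5.11* lay at -2.70, with 69 reads in *cep1*, against 503 in the WT, and *NPF6.2*, a nitrate transporter gene of the petiole, at -2.17. *NPF6.4* (-1.57), *NPF3.1* (-1.52) and *NPF8.5* (-1.11) were closer to -1, and the interval of *NPF8.5* reached across it. *AMT1-2*, a high-affinity ammonium transporter gene, had 564 reads and an FPKM of 13.7 in *cep1*, against 4436 reads and an FPKM of 114 in the WT (-2.81, -2.94 to -2.68), the highest WT level of these 7 genes. Amino acid permease genes were lower by less. *AAP1*, for neutral amino acids, had FPKM values of 21.9 in *cep1* and 65.7 in the WT (-1.34), and *AAP5*, for basic ones, 20.4 in *cep1* and 49.6 in the WT (-1.05, with an interval across -1). AT1G25530, described as lysine histidine transporter-like 6, was abundant in both libraries, with FPKM values of 104 in *cep1* and 274 in the WT (-1.16, -1.22 to -1.11). The polyamine uptake gene *PUT1* lay at -1.13.

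The WAT1-related genes, which RefSeq names *UMAMIT*, belong to a family of bidirectional amino acid facilitators, some of which supply developing seeds. Of the 8 genes, 2 lay at -2 or below, against 46.8% of the table. The intervals of these 2 genes lay apart from each other. The other 6 lay nearer the table's limit of -1, which bounds them from above. *UMAMIT25* (AT1G09380) had 3 reads and an FPKM of 0.0867 in *cep1*, against 1257 reads and an FPKM of 38.2 in the WT, the lowest log2 ratio of the 74 genes (-8.55, -10.83 to -7.00). *UMAMIT8* had 26 reads in *cep1* stems but 447 in WT stems (-3.94, -4.57 to -3.37). The others, *UMAMIT19*, *UMAMIT22*, *UMAMIT28*, *UMAMIT29*, *UMAMIT11* and *UMAMIT20*, lay between -1.73 and -1.15, with WT FPKM values between 28.9 and 72.3. *UMAMIT28*, *UMAMIT29* and *UMAMIT11*, which are known from the export of amino acids towards seeds, were among these 6, whereas *UMAMIT25*, also known from seed loading, was not. *UMAMIT11* had the highest WT level of the 8 genes, with FPKM values of 24.2 in *cep1* and 72.3 in the WT. The interval of *UMAMIT20* reached across -1.

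The 10 genes for metals and other cations had a median of -1.45, and 8 of them lay between -1.58 and -1.01. The table's limit of -1 bounds this range from above, so part of its narrowness is given by the table. At -2 or below lay 2 of the 10 genes, against 46.8% of the table. *HMA2*, a P-type ATPase that exports zinc and cadmium and loads zinc into the xylem, had the highest level of the group, with 2857 reads and an FPKM of 45.0 in *cep1*, against 9560 reads and an FPKM of 159 in the WT (-1.58, -1.64 to -1.52). The other 2 genes stood apart. AT5G42610, described as mitochondrial calcium uniporter protein 4, had 65 reads in *cep1*, against 735 in the WT (-3.34, -3.72 to -2.97), whereas the uniporter protein 2 gene AT2G23790 had 711 reads in *cep1* stems but 2149 in WT stems (-1.43, -1.56 to -1.31). *HKT1*, which retrieves sodium from the xylem sap, had 85 reads in *cep1*, against 563 in the WT (-2.56, -2.91 to -2.23). The potassium channel gene *KAT1*, known from guard cells, lay at -1.48, the cation/calcium exchanger gene *CCX1* at -1.51, the metal tolerance protein gene *MTP9* at -1.34 and the cyclic nucleotide-gated channel gene *CNGC4* at -1.28. *IRT3* (-1.04), of the iron and zinc carriers, and the glutamate receptor gene *GLR3.2* (-1.01) had intervals that reached across -1. Among the anion transporter genes, *PHO1-H10*, of the PHO1 phosphate exporter family, lay at -1.66, *SULTR2;2*, of low sulfate affinity, at -1.47, and *SULTR4;1*, which releases sulfate from vacuoles, at -1.01, with 1311 reads in *cep1* stems but 2953 in WT stems and an interval that reached across -1.

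ABC proteins use ATP to move varied compounds. *ABCF2*, of a subfamily without membrane domains, had 26 reads in *cep1*, against 599 in the WT (-4.36, -4.99 to -3.80). The genes *ABCB16* and *ABCB15*, 12249 bp apart on chromosome 3, both annotated with auxin export, differed in ratio. *ABCB16* had 383 reads and an FPKM of 4.57 in *cep1*, against 4953 reads and an FPKM of 62.3 in the WT (-3.53, -3.68 to -3.38). *ABCB15* had 2378 reads and an FPKM of 27.7 in *cep1*, against 7076 reads and an FPKM of 86.8 in the WT (-1.41, -1.48 to -1.34). Their intervals lay apart. *ABCC10* (-2.50), *NAP5* (-2.43), *ABCI17* (-1.35) and *ABCC4* (-1.05) completed the group, and the interval of *ABCC4* reached across -1. The 4 MATE genes, whose proteins export organic compounds in exchange for cations, lay between -2.97 and -1.46. AT1G15150 had 57 reads in *cep1* stems but 501 in WT stems (-2.97, -3.39 to -2.57). AT1G51340 lay at -1.71. *ALF5*, which protects roots from toxins, had 323 reads in *cep1*, against 1743 in the WT (-2.27), and AT1G33110 had the highest WT level of the MATE genes, with FPKM values of 25.0 in *cep1* and 81.5 in the WT.

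The genes for nucleobases and nucleosides spread from -3.23 to -1.26. *NAT8*, of the nucleobase-ascorbate transporter family, had 42 reads in *cep1* stems but 442 in WT stems (-3.23, -3.72 to -2.77), and *ENT6*, an equilibrative nucleoside transporter gene, had 126 in *cep1* and 838 in the WT (-2.57, -2.85 to -2.30). The purine permease gene *PUP11* (-1.38) and *NCS1* (-1.26), for a nucleobase carrier of plastids, were closer to -1, and *PUP11* had the highest WT FPKM of these genes, 66.0, against 21.4 in *cep1*. Of the other carrier genes, that of the carnitine transporter *OCT1* lay at -2.02, with 205 reads in *cep1*, against 933 in the WT. AT5G16530, deposited as *PIN8* and named *PIN5* by RefSeq, encodes an auxin carrier and lay at -1.45. The drug/metabolite transporter gene AT4G18220 lay at -1.26. It was placed here by its deposited description, although its nearest coding sequence is that of *PUP10*.

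The deposited descriptions of 8 of the 74 genes name no membrane carrier. *APT2*, an adenine phosphoribosyltransferase gene of purine salvage for which RefSeq also lists the name PHT1.1, had 571 reads and an FPKM of 30.9 in *cep1*, against 5585 reads and an FPKM of 319 in the WT (-3.13, -3.25 to -3.00). Organelle genes made up 3 of the 8. *ATPE*, the plastid gene of the ATP synthase epsilon chain, had the highest FPKM of the 74 genes in both libraries, 549.9 in *cep1* and 1605 in the WT (-1.31). The plastid gene *YCF1.2* (-1.78) and the mitochondrial cytochrome oxidase gene *COX1* (-1.77) lay close to each other. AT3G24460 (-1.71), of the serinc family, AT4G36640 (-1.54), which encodes a Sec14p-like lipid transfer protein, *AIP1* (-1.20), which encodes a protein phosphatase, and *TOC34* (-1.06), of protein import into plastids, were the remaining genes, and the interval of *TOC34* reached across -1.

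**Figure D4:**
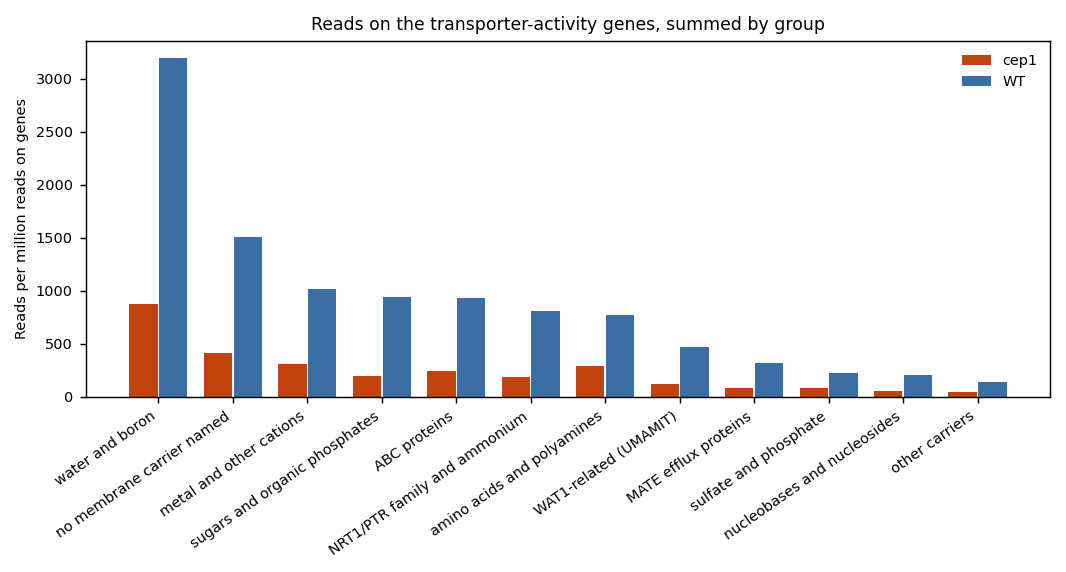
RPM, reads per 1000000 reads on genes (vertical axis), summed over the transporter genes of each group, in *cep1* (left bars) and WT (right bars), 1 library each. Water and boron transport took 875 RPM in *cep1* and 3197 RPM in the WT, the most of the 12 groups, and other carriers 41.1 in *cep1* and 138 in the WT, the fewest.

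In the order of levels, the 10 genes with the highest FPKM in the WT were *ATPE*, *PIP1-2*, *NIP5-1*, *APT2*, AT1G25530, *NIP6-1*, *BOR1*, *HMA2*, *ERD6-like 7* and *AMT1-2*. Their WT FPKM values ran from 1605 for *ATPE* to 114 for *AMT1-2*.

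Families were matched by gene name only, either the RefSeq name or synonym or the name in the deposited table. Loci outside the table could be matched by RefSeq name alone. Where RefSeq uses other names, as for *NPF* and *BOR* genes, the family counts may therefore be too small and the shares too high. Of the loci so matched, the table held 3 of 17 *SWEET* genes, 1 of 9 *SUC* genes, 4 of 35 aquaporin genes, 1 of 6 *AMT* genes, 8 of 44 *UMAMIT* genes and 2 of 4 *BOR* genes. It also held 2 of 8 *AAP* genes, 2 of 12 *SULTR* genes, 6 of 28 *NPF* genes, 8 of 127 *ABC* genes and the 1 *HKT* gene. None of the 10 loci named *STP* (hexose carriers), 7 named *NRT2* (nitrate transporters) and 12 named *KUP* (potassium carriers) was in it. The 6 loci named *NRAMP* and 8 named *YSL* were also absent, as were those of some other families searched. Of the iron and zinc carriers, none of the 16 loci named *ZIP* was in the table, but *IRT3*, which belongs to the same family under another name, was. The table lists 733 genes, against 27443 nuclear protein-coding genes of RefSeq in the promoter search, so a family of this size can lack a listed gene. Nothing is read from these family counts. Family members outside the table were not analysed here, so it was not seen whether they were higher, unchanged or lower by less.

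Genes with transporter names also lay outside the annotation rule. Of 6 such genes, those with the lowest ratios were *ABCG15* (7 reads in *cep1* stems but 297 in WT stems, log2 ratio -5.24), the ABC transporter-related gene AT3G21080 (20 in *cep1* and 740 in the WT, -5.05) and the vacuolar iron transporter gene AT1G21140 (305 in *cep1* and 1420 in the WT, -2.06).

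Some counts rest on genes with close copies. Of the 71 nuclear genes, 6 had a coding sequence at least 90% identical to another gene over at least 50% of their length. These were *ENT6* (93.6% identical to AT4G05120), AT1G15150 (93.1% to AT1G15160), *ERD6-like 11* (92.3% to AT3G05160), *NAP5* (92.1% to AT3G13080), AT4G18220 (90.4% to AT4G18210) and AT1G33110 (90.03% to AT1G33100). How reads that match both copies were counted is not given in the sources used here, so the values of these 6 are uncertain.

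Promoters were searched as a description. That all the genes were lower in *cep1* is given by the table, and whether they share regulation was not tested. In the window from 250 bases before to 50 after the RefSeq gene start (TAIR10.1, both strands), the G-box CACGTG, which bZIP and bHLH factors bind, was found in 14 of 71 transporter genes (19.7%), in 85 of the 619 other nuclear protein-coding genes of the table (13.7%) and in 2107 of all 27443 (7.68%). The evening element AAAATATCT, known from clock-regulated genes, was in 3 of 71 (4.22%), 2.75% of the other genes of the table and 2.82% of all windows. The W-box letters TTGACC, known from WRKY binding, were in 8 of 71 (11.3%), 12.8% of the other genes of the table and 14.2% of all windows. None of these motifs contains another. A match is a description of letters and not a binding site. The G-box and 12 bases on each side are shown for the 5 of these 14 genes with the lowest log2 ratios, with the G-box in capitals and reading 5′ to 3′ towards the gene.
SUC5, chr1:27058281-27058310, forward strand: atgacctactgcCACGTGtcctcacattgt
ABCF2, chr5:3100395-3100424, reverse strand: tatgcggtttgaCACGTGgcaatttatgag
AT5G42610, chr5:17062222-17062251, forward strand: tagtgaaactgaCACGTGttctccaatatt
AT1G15150, chr1:5212265-5212294, forward strand: acaatgttttgcCACGTGgatgatcaaaat
ERD6-like 7, chr2:19643918-19643947, forward strand: ggccaaagacatCACGTGtctgtctctgtc
The boxes begin 88 bases before the start in *SUC5*, 121 in *ABCF2*, 221 in AT5G42610, 198 in AT1G15150 and 91 in *ERD6-like 7*.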

How the data were processed

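Mature stem RNA was sequenced for 1 *cep1* and 1 WT sample. The authors mapped reads with TopHat 2.0.12, and the submitters' processing notes also list Bowtie2 2.2.3 and HTSeq 0.6.1 without a role. The genome build is not given in the sources used here. The deposited table gives raw counts of reads for each gene, which the authors had not scaled, FPKM values scaled to gene length and library total, and normalized counts, a signal equal to the raw counts divided by 20.3 (*cep1*) or 22.8 (WT). In the WT, 16 of the 74 FPKM values differed by over 1% from count, listed length and library total, by up to 1.15 times. Columns of the authors' own comparison (fold changes, p-values and adjusted p-values) were not used, beyond the mark of all 733 rows as down-regulated.

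Log2 ratios were computed from raw counts and these constants, with exact (Clopper-Pearson) 95% intervals. With 1 library a genotype no test could be fitted. Members, substrate groups and lists were chosen with earlier results of these data known. Substrate groups, the *UMAMIT* and *BOR* families, the nearest coding sequences (blastn 2.17.0) and the motifs were chosen after the table was read. The 46 genes of the naming rule were those with at most 3 reads in *cep1*, in each group the 2 lowest ratios, the ratio nearest 0 and the highest WT FPKM, the 10 highest WT FPKM values, and intervals across -1. Outside the 74, the 3 lowest ratios among genes with transporter names were taken. The other genes were named after their values were seen. RefSeq (TAIR10.1) had a locus tag for 71 of the 74 genes. The intervals were tested on simulated data. Python 3.11.15, numpy 2.4.6, pandas 2.3.3, scipy 1.17.1 and matplotlib 3.10.9 were used.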

Additional observations from a re-analysis of the deposited data

How the results depend on the processing

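The scaling moved the ratios as a whole. Scaled to the library totals, all log2 ratios shifted by -0.24, the median of the 74 genes was -1.81, as it was with deposited FPKM values, and the group medians were -2.82 (sugars and organic phosphates), -2.67 (ABC proteins), -2.42 (water and boron), -2.41 (NRT1/PTR family and ammonium), -2.23 (MATE efflux proteins), -2.21 (nucleobases and nucleosides), -1.86 (no membrane carrier named), -1.77 (WAT1-related), -1.71 (sulfate and phosphate), -1.69 (metals and other cations), -1.69 (other carriers) and -1.38 (amino acids and polyamines). With at least 20 reads in both libraries, which leaves out 4 genes, the medians were -1.57 for water and boron and -1.87 for the NRT1/PTR family and ammonium. Of the reads on the table's genes, the 74 genes took 13.6% in *cep1* and 11.96% in the WT. Without *PIP1-2* they took 0.228% of the library in *cep1* and 0.897% in the WT, and without the organelle genes, an alternative chosen after seeing the data, 0.256% in *cep1* and 0.949% in the WT. At most 3 reads in *cep1* were found for 4 genes, and no read for 0. For the 46 genes of the naming rule, a shift was set against 0.5 times the width of the gene's counting interval. With 0.5 read added to each count, 46 moved by no more than that. With library totals 34 moved by more, all by -0.24, as with deposited FPKM values. With 1 added to the FPKM values 34 moved by more as well, with shifts of -0.24 to 4.05, the upper end being that of *NPF4.1* at -2.90, against -6.94 as reported. Since the table lists genes for being lower in *cep1*, these alternatives could hardly turn a direction. The library of each genotype stands alone, so plant-to-plant variation, growth stage and genotype cannot be told apart.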

Other observations

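The 71 nuclear transporter genes were unevenly placed. Chromosome 1 held 31 of them (43.7%), against 28.0% of the other nuclear genes of the table and 26.1% of all nuclear protein-coding genes. No test was made of this count, which was noticed in the data.

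One deposited gene name had been turned into a date. The gene name of AT1G73220, the carnitine transporter *OCT1*, reads 1-Oct in the table.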
